A study of Mus musculus with 26 samples.

Results

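The nuclear-encoded respiratory chain genes were examined in single blastomeres of mouse 8-cell embryos. They were taken as the autosomal protein-coding genes whose GENCODE vM21 symbol starts with Ndufa, Ndufb, Ndufc, Ndufs, Ndufv, Uqcr, Cox4 to Cox8 or Atp5, or is one of the Sdha to Sdhd symbols. This gave 91 genes of the 55487 genes in the table, and of 20780 autosomal protein-coding genes. Of the 91 genes, 80 encode structural subunits: 34 of complex I, 4 of complex II, 8 of complex III, 18 of complex IV and 16 of complex V. The other members were 8 assembly factors of complex I, the factors Cox7a2l and Atp5s, and a second, longer Atp5o gene model. Ndufa4 and Ndufa4l2 were placed in complex IV.

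RNA and DNA of the same cell were separated with carboxylic acid beads and sequenced apart (scRR-seq). The RNA table held 9 blastomeres, cells 1, 6 and 7 of embryo 1 and cells 2, 3, 5, 6, 7 and 8 of embryo 2. Both embryos came from in vitro fertilisation with C57BL/6 mice, and their cells were separated by hand. Each embryo is a single biological replicate, so all differences are set beside the spread between cells and none was tested. The study describes representative cells of embryo 1 as outside S phase and those of embryo 2 as in S phase. Embryo and cell-cycle phase therefore cannot be told apart in any difference between the embryos.

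The closing numbers of the sample titles form 2 ranges, 11-17 (embryo 1 cell 1, embryo 2 cells 2 and 3) and 20-25 (the other 6 cells). The sample list of the study gives the larger lysis volume to the first range and the smaller one to the second, and the titles do not name it. RNA levels are TPM, transcript abundance corrected for transcript length and scaled to a constant sum per cell, so that levels of different genes can be compared. The authors set the reads of each cell to a common number. A TPM is a share of the RNA of a cell, and the number of reads behind a single value cannot be read from it. Of 8 blastomere markers, 7 had TPM > 1 in every cell, among them Pou5f1 (117 to 346 TPM), while Sox2 stayed at or below 0.600 TPM. Of 8 cumulus or granulosa cell markers, 5 were listed at 0 in every cell, among them the defining Fshr, Amh and Cyp19a1. The summed level of the 8 ran from 20.7 to 35.4 TPM over the embryo 1 cells and from 9.73 to 25.9 TPM over those of embryo 2, nearly all of it Amhr2.

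The respiratory chain sits in the inner mitochondrial membrane. Complexes I and II pass electrons from NADH and succinate to ubiquinone, complex III passes them to cytochrome c, and complex IV passes them to oxygen. Complex V, the ATP synthase, uses the proton gradient that complexes I, III and IV build up. Complex II is encoded in the nucleus alone, whereas the other complexes mix nuclear subunits with subunits encoded by mitochondrial DNA. Mammalian embryos inherit their mitochondria from the egg.

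Promoter windows from RefSeq (GRCm38.p6), from 250 bases before to 50 bases after a gene's start, were found for 73 of the 91 members. They were searched on both strands for letters known as motifs of factors that act on this gene class, with N for any base: GCGCANGCG for NRF1, CCGGAAG for the ETS family that includes GABP, and AAGATGGCG for YY1. The end of the ETS letters can overlap the start of the YY1 letters, which happened in 0 members. The NRF1 letters were found in 22 of the 73 members (30.1%) against 7.03% of all genes with a window. The ETS letters were in 18 members (24.7% against 9.93%) and the YY1 letters in 8 (10.96% against 1.64%). Over windows rather than genes, the shares in all 32851 windows were 6.25%, 8.86% and 1.40%. In all, 39 of 73 members (53.4%) held at least 1 of the 3 motifs, against 16.5% of all genes, and 34 held none. These are matches of letters and were not tested as binding sites. For each motif a highly expressed member that holds it is shown as 50 bases with the matching letters in capitals. The first is from chr9:44920943-44920992, the second from chr9:44920925-44920974 and the third from chr16:84835035-84835084, all read 5′ to 3′ on the minus strand, the strand of these genes. The matches began 241, 212 and 88 bases before the start of the gene, and the NRF1 and ETS letters read on the opposite strand there.
Atp5l, NRF1: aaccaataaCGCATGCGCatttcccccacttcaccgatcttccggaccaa
Atp5l, ETS: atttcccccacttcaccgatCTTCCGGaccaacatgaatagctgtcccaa
Atp5j, YY1: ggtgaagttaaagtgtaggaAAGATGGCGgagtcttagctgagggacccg

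The members were abundant and broadly detected. In every cell 82 of the 91 members had TPM > 1, where 31.4% of all autosomal protein-coding genes did, and 75 members were above 10 TPM in every cell. Another 6 members passed TPM > 1 in some cells, and 3 were listed at 0 in all 9. The median member ranked 1116 of the 20780 genes by mean TPM. A single member, Atp5b, was among the top 100 genes, and 29 were among the top 500. Together the 91 genes held 1.54%, 1.68% and 1.95% of all TPM in embryo 1 cells 1, 6 and 7. In embryo 2 their share was 1.48% at the lowest (cell 2), 1.75% at the median and 1.83% at the highest (cell 6). The embryos overlapped and their means, 1.72% ± 0.207 (SD, n = 3) and 1.69% ± 0.134 (SD, n = 6), differed by less than the spread between cells. The sign of that small difference, -0.03 points, turned to 0.10 points with TPM rescaled outside the mitochondrial genome. The coefficient of variation over the 9 cells was 8.72%, beside 8.88% for 78 mitochondrial ribosomal protein genes, 9.55% for 14 genes of the tricarboxylic acid (TCA) cycle and 13.2% for 92 cytosolic ribosomal protein genes.

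**Figure D1:**
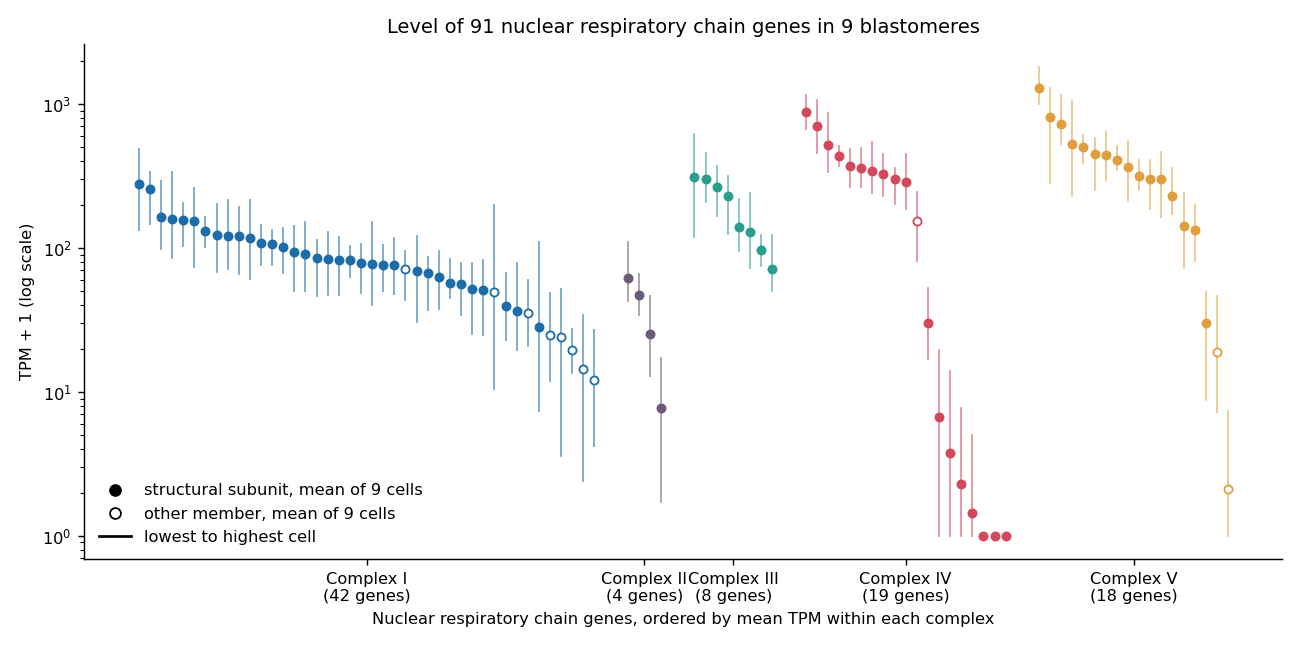
Level of each of the 91 members as TPM + 1 on a log axis, grouped by complex and ordered by mean within it. Filled points are structural subunits, open points other members, and lines run from the lowest to the highest of the 9 cells. Complex V and IV subunits lie highest, complex II lowest, and complex IV ends in 7 subunits that did not pass 1 TPM in every cell.

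The complexes differed in gene TPM. The median subunit of complex V stood at 354 ± 51.7 TPM (mean and SD of the per-cell median over 9 cells), that of complex IV at 261 ± 31.5, complex III at 175 ± 31.3, complex I at 84.2 ± 5.99 and complex II at 34.2 ± 6.22 TPM. The ranges over cells of complexes I and II did not overlap each other or those of complexes III to V. Those of complexes IV and V did overlap (222 to 317 and 269 to 418 TPM), as did those of complexes III and IV (134 to 238 TPM for complex III). Summed over subunits, complex V held 41.8% ± 3.28 of the structural subunit TPM, complex IV 27.5% ± 2.58, complex I 20.6% ± 1.24, complex III 9.29% ± 1.05 and complex II 0.840% ± 0.192 (SD, n = 9). Complex I, with the most genes, therefore held less RNA than complexes V and IV. These levels count all transcripts of a gene, including those that GENCODE does not label protein-coding. The protein-coding share differed between subunits, in complex V from 9.84% for Atp5l to 100% for Atp5g1. The order of the complexes over protein-coding transcripts alone was not worked out.

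In complex I, the entry point for electrons from NADH, mean subunit levels ran from 27.5 to 277 TPM, and all 34 subunits had TPM > 1 in every cell. The highest in gene TPM were Ndufc1, Ndufs6 and Ndufa3, which are accessory subunits outside the catalytic core. Part of this TPM lay on models that GENCODE labels as nonsense-mediated decay, 48.8% for Ndufs6 (Ndufs6-202) and 83.4% for Ndufa3 (Ndufa3-204). For Ndufc1, 61.5% lay on Ndufc1-203, a retained-intron model, and its protein-coding transcripts were at 32.5 to 198 TPM over the 9 cells. Protein-coding transcripts of Ndufa3 were at 0 to 37.8 TPM over the 9 cells. Ndufs6 measured 197, 302 and 324 TPM in the embryo 1 cells and 145 to 339 TPM (median 241) across embryo 2. Ndufa3 measured 147, 178 and 209.7 TPM in the embryo 1 cells and 97.95 to 291 TPM (median 132) across embryo 2. For both genes the embryos overlapped and no cell stood far from the rest. Ndufc1 measured 131, 484 and 261 TPM in the embryo 1 cells and 143 to 449 TPM (median 268) across embryo 2. Its 3 lowest cells were the 3 cells numbered 11-17.

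The lowest complex I subunits were Ndufs4, an accessory subunit mutated in Leigh syndrome, and Ndufb4. Ndufs4 measured 27.6, 77.5 and 48.5 TPM in the embryo 1 cells and 18.7 to 41.4 TPM (median 27.5) across embryo 2. Ndufb4 measured 6.32, 25.1 and 8.13 TPM in the embryo 1 cells and 6.50 to 30.7 TPM across embryo 2 except in cell 5, where it reached 109.8 TPM. Of Ndufb4 TPM, 92.6% lay on Ndufb4-202, a retained-intron model that reached 107.95 TPM at its highest in the cells numbered 20-25. Protein-coding transcripts of Ndufb4 were at 0 to 5.46 TPM over the 9 cells. Ndufb4c, a processed pseudogene of Ndufb4 in the same table, was listed at 12.1 to 75.1 TPM, above Ndufb4 itself in 7 of the 9 cells. How reads were split between the gene and its copy was not tested.

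The 8 Ndufaf genes, which help to build complex I and leave it again, were lower than its subunits at the median, which was 22.9 ± 5.52 TPM per cell (SD, n = 9). In gene TPM Ndufaf8 was the highest at 70.6 ± 14.1 TPM and Ndufaf5, which modifies a core subunit, the lowest at 11.1 ± 6.76 TPM. Of Ndufaf8 TPM, 68.3% lay on Ndufaf8-203, a retained-intron model. Its protein-coding transcripts were at 4.93 to 36.1 TPM over the 9 cells, and those of Ndufaf2 at 19.9 to 59.0 TPM. Ndufaf4 and Ndufaf6 had, with Ndufb4, the largest spread of the 82 members that averaged 3 or more on the log2(TPM + 1) scale, with SDs of 1.34, 1.26 and 1.27 over 9 cells. Ndufaf6 measured 23.1, 30.5 and 9.42 TPM in the embryo 1 cells and 16.1 to 71.0 TPM across embryo 2 except in cell 8, where it stood at 197 TPM. Of that, 189 TPM sat on a single transcript model, Ndufaf6-205, that GENCODE lists as a processed transcript without a coding sequence. Ndufaf4 fell into high and low cells in both embryos: it was at 29.9, 50.5 and 2.58 TPM in embryo 1, and in embryo 2 at 35.1 and 51.0 TPM in cells 6 and 7 and 7.75 to 10.9 TPM in the others.

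Complex II, succinate dehydrogenase, couples the TCA cycle to the chain. Sdha, its flavoprotein, measured 52.6, 109 and 64.0 TPM in the embryo 1 cells and 41.6 to 72.3 TPM (median 50.2) across embryo 2. Sdhb, its iron-sulfur subunit, measured 64.5, 34.2 and 44.9 TPM in the embryo 1 cells and 33.5 to 50.8 TPM (median 47.6) across embryo 2. In gene TPM these 2 catalytic subunits did not differ beyond their spread. Of Sdha TPM, 51.4% lay on Sdha-206, a retained-intron model, while protein-coding transcripts took 99.7% of Sdhb TPM. In the cells numbered 20-25, protein-coding transcripts were at 14.25 to 24.98 TPM for Sdha and 33.47 to 50.77 TPM for Sdhb, without overlap. In those numbered 11-17 they were at 30.13 to 47.71 TPM and 40.81 to 63.27 TPM, and overlapped. The membrane anchors were lower in gene TPM, Sdhd at 24.2 ± 11.6 TPM and Sdhc at 6.73 ± 4.90 TPM (SD, n = 9). Sdhc measured 16.1, 0.730 and 3.21 TPM in the embryo 1 cells and 3.24 to 12.3 TPM (median 6.15) across embryo 2. It was the lowest of the 4 genes in every cell.

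In complex III, mean levels ran from 70.7 TPM for the core protein Uqcrc2 to 312 TPM for Uqcrb, a small ubiquinone-binding subunit. Uqcrb varied most, measuring 119, 623 and 175 TPM in the embryo 1 cells and 178 to 405 TPM (median 337) across embryo 2. The hinge protein Uqcrh averaged 302 ± 77.9 TPM and Uqcr10 265 ± 71.6 TPM (SD, n = 9), so the 3 highest genes did not differ beyond their spread. The Rieske iron-sulfur protein Uqcrfs1, a catalytic subunit, was among the lowest at 95.6 ± 19.2 TPM.

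In complex IV, cytochrome c oxidase, the RNA came from a single isoform in most isoform sets. Cox6c led the complex at 877 ± 159 TPM (SD, n = 9). The ubiquitous Cox4i1 measured 801, 513 and 1062 TPM in the embryo 1 cells and 455 to 866 TPM (median 677) across embryo 2. Its partner Cox4i2, known from lung and from the response to low oxygen, measured 2.78, 0 and 12.97 TPM in the embryo 1 cells and at most 4.08 TPM in the others. Cox6a1 averaged 434 ± 52.2 TPM and Cox8a 517 ± 166 TPM (SD, n = 9). Their partners Cox6a2 and Cox8b, isoforms of heart and skeletal muscle, were listed at 0 in all 9 cells, as was Ndufa4l2, while Ndufa4 averaged 327 ± 83.7 TPM.

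The isoforms known from testis were low too. Cox6b2 was listed at 0 in 2 cells and at most at 18.6 TPM, against 286 ± 80.6 TPM for Cox6b1. Cox8c passed 1 TPM in 3 cells, and Cox7b2 was above 0 in embryo 2 cell 3 alone, at 4.04 TPM. Cox7a1 was the exception among the muscle isoforms. It measured 22.4, 16 and 27.8 TPM in the embryo 1 cells and 21.97 to 51.8 TPM (median 31.4) across embryo 2, and so was present in every cell. Its ubiquitous partner Cox7a2 averaged 302 ± 50.7 TPM, but 76.4% of that lay on Cox7a2-203, a processed transcript. The protein-coding transcripts of Cox7a2 were at 10.0 to 169 TPM over the 9 cells. Those of Cox7a1 were at 16 to 51.8 TPM, so the 2 ranges overlapped. Cox7a2l, counted here as a factor and not as a structural subunit, averaged 154 ± 43.6 TPM. Cox5a (357 ± 74.8 TPM) and Cox5b (344 ± 89.6 TPM), which are different subunits and not isoforms, did not differ beyond their spread. Protein-coding transcripts took 99.6% of the Cox5a TPM but 15.9% of that of Cox5b, where 84.0% lay on Cox5b-205, a processed transcript.

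**Figure D2:**
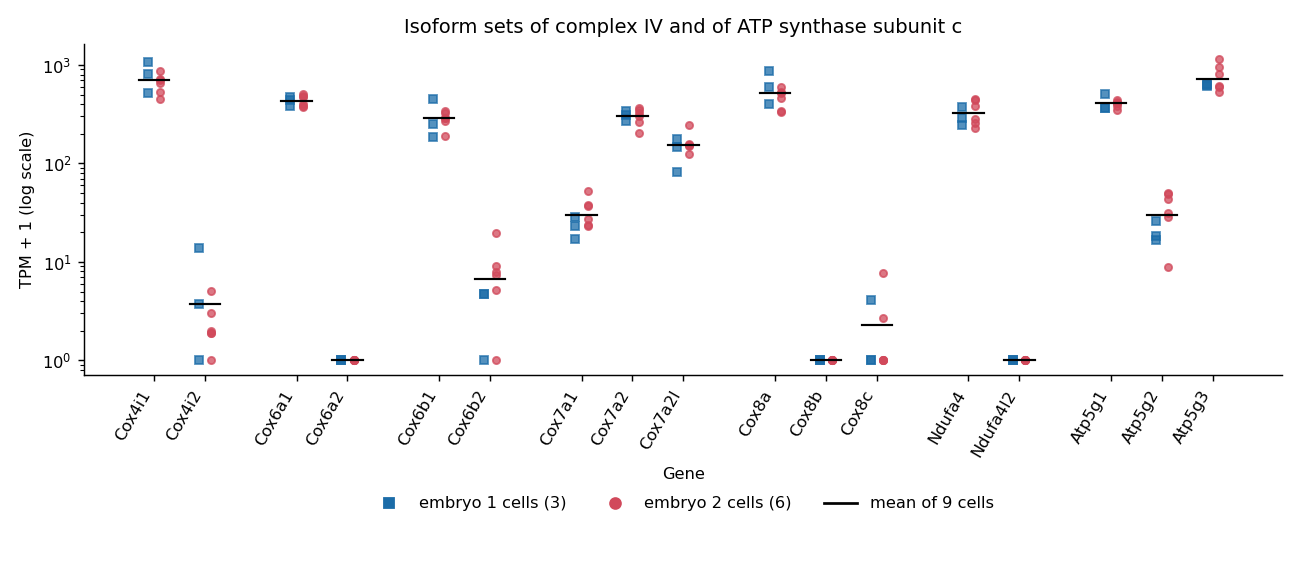
TPM + 1 on a log axis for the genes of 7 isoform sets. Squares are the 3 cells of embryo 1, circles the 6 cells of embryo 2, and bars the mean of 9 cells. Cox6a2, Cox8b and Ndufa4l2 lie on the line of 0 TPM in every cell, Cox7a1 is between 16 and 51.8 TPM, and Atp5g2 lies below Atp5g1 and Atp5g3 in every cell.

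Complex V held the most abundant member in gene TPM. Atp5b, the catalytic beta subunit, measured 1293, 1008 and 1668 TPM in the embryo 1 cells and 1022 to 1798 TPM (median 1222) across embryo 2. Of its TPM, 64.9% lay on Atp5b-206, a processed transcript. The protein-coding transcripts of Atp5b were at 147 to 535 TPM over the 9 cells, below those of Cox6c in complex IV (667 to 1147 TPM). Subunit c, the ring through which protons pass, is encoded by 3 genes with an identical mature protein. Atp5g3 led at 725 ± 205 TPM, Atp5g1 followed at 406 ± 50.2 TPM and Atp5g2 was at 29.2 ± 14.6 TPM (SD, n = 9). This order held in all 9 cells. Atp5g1 and Cox6a1 had the smallest spread among the 82 members that averaged 3 or more on the log2(TPM + 1) scale, with an SD of 0.17 each. The lowest subunits were Atp5g2 and Atp5j2, the latter at 133 ± 31.6 TPM. The second Atp5o gene model was at 6.43 and 3.74 TPM in 2 cells and at 0 elsewhere, against 299.8 ± 71.1 TPM for Atp5o itself.

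Taken as sums, the mRNAs of the mitochondrial genome varied far more than the nuclear members. Single nuclear members such as Uqcrb varied more than the sum of the members did. The 13 mitochondrial mRNAs held 2.87%, 3.10% and 1.82% of TPM in embryo 1 cells 1, 6 and 7. In embryo 2 they held 3.38% and 3.07% in cells 2 and 3, and 12.5%, 6.25%, 6.88% and 9.26% in cells 5 to 8. Their highest share was 6.87 times the lowest, and the coefficient of variation was 65.5% against 8.72% for the nuclear members. The 4 highest cells were all from embryo 2 and from the number range 20-25. Because TPM of a cell adds up to a constant, a higher mitochondrial share lowers every nuclear TPM. TPM rescaled to the genes outside the mitochondrial genome gave the members 1.59% to 2.09%. Copies of mitochondrial genes on chromosome 1, at 0.838% to 4.79% of TPM, stayed in this rescaled total. The rescaling may therefore not remove the whole effect. Over the 9 cells, Pearson's r between the mitochondrial and the rescaled nuclear share was 0.46 (Spearman's rho 0.40), and within the 6 cells numbered 20-25 it was 0.20. This is a description of 9 cells that share 2 embryos.

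**Figure D3:**
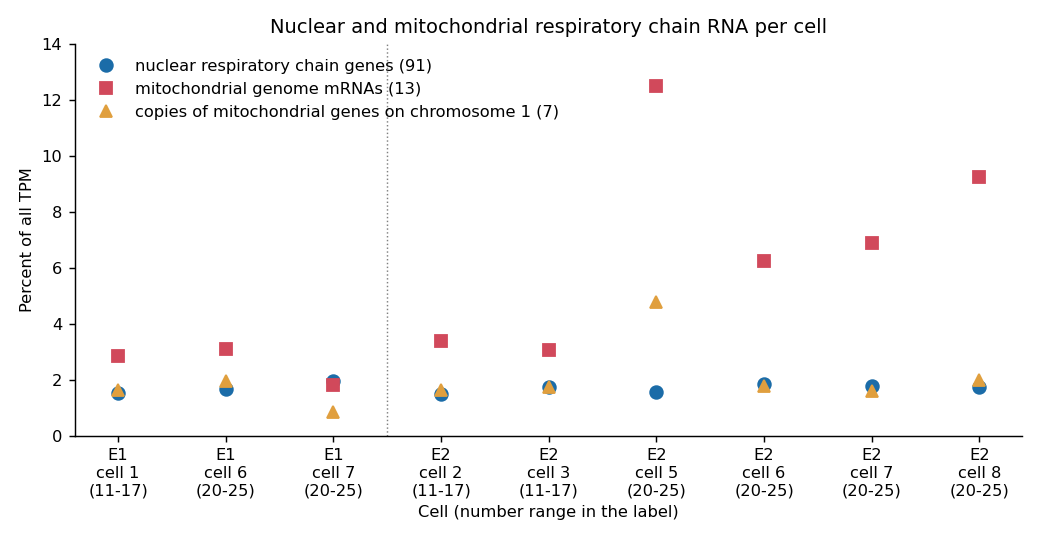
Percent of all TPM in each of the 9 cells held by the 91 nuclear members (circles), the 13 mitochondrial mRNAs (squares) and their 7 copies on chromosome 1 (triangles). The dotted line separates embryo 1 (E1) from embryo 2 (E2). The circles stay between 1.48% and 1.95%, while the squares run from 1.82% to 12.5%.

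The log2 ratio of mitochondrial to nuclear respiratory chain RNA averaged 1.42 ± 0.94 (SD, n = 9), that is, more mitochondrial RNA in 8 of the 9 cells. It was 0.90, 0.89 and -0.10 in embryo 1 and 1.19, 0.81, 2.98, 1.77, 1.96 and 2.41 in embryo 2. The embryo means differed by 1.29, against a pooled SD between cells of 0.74, and the embryos overlapped. The 3 cells numbered 11-17 lay within 0.81 to 1.19 whatever their embryo. Within 20-25, the embryo 1 cells were at 0.89 and -0.10 and the embryo 2 cells at 1.77 to 2.98. Whether the embryo, the cell-cycle phase or the handling of single cells set this pattern was not tested. Embryo and phase cannot be told apart here.

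The same pattern was seen complex by complex. The ratio of summed mitochondrial to summed nuclear subunit TPM was highest in complex I, at 2.36 to 19.7, where the mitochondrial genome encodes 7 subunits and the nucleus the 34 counted here. It was 1.31 to 11.1 in complex III, where the mitochondrial genome encodes mt-Cytb alone, 0.260 to 6.09 in complex IV and 0.432 to 3.70 in complex V. In each of these complexes embryo 2 cell 5 was the highest. These ratios use the mitochondrial genes as listed, and copies of some of them on chromosome 1 were left out. With the copies added, an alternative chosen after seeing the data, the ratios became 2.78 to 24.3 in complex I, 1.43 to 11.3 in complex IV and 0.658 to 5.66 in complex V, with cell 5 still the highest, while complex III has no copy there. The nuclear sums of the same complexes moved little, with coefficients of variation of 10.1%, 13.6%, 12.2% and 12.5%. Across the 9 cells the nuclear and mitochondrial sums of a complex had Pearson's r of -0.48, -0.42 and -0.51 in complexes I, III and IV and 0.55 in complex V, all subject to the same constant sum.

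**Figure D4:**
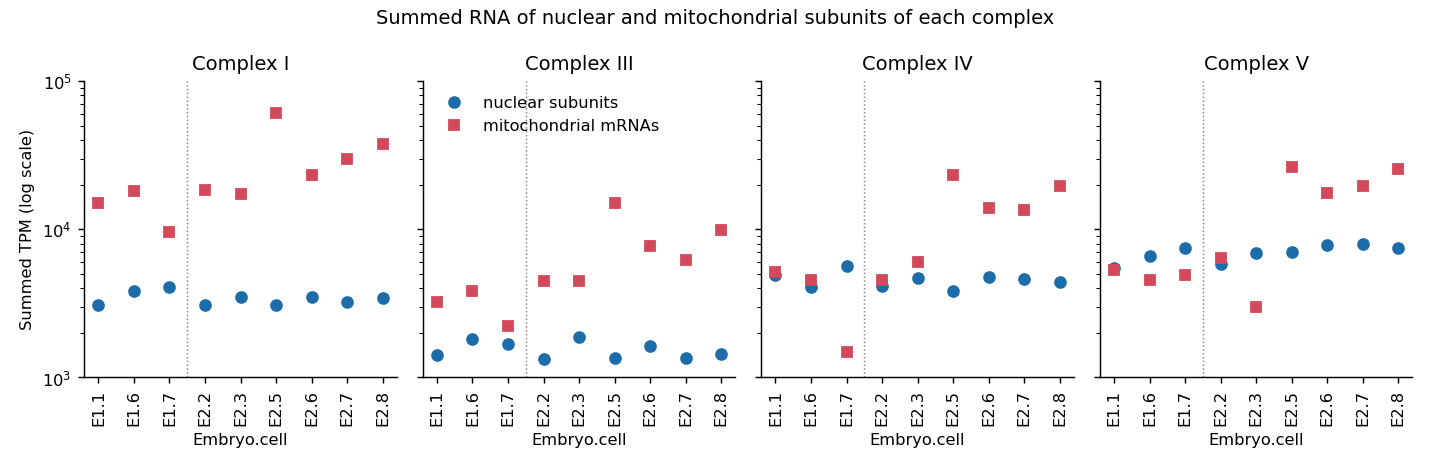
Summed TPM on a log axis of nuclear structural subunits (circles) and mitochondrial mRNAs (squares) of complexes I, III, IV and V in each cell, with embryo 1 left of the dotted line and the chromosome 1 copies left out. The nuclear sums stay within a narrow band, while the mitochondrial sums are highest in the embryo 2 cells numbered 20-25 (cells 5 to 8).

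The mitochondrial mRNA values carry a limit of mapping. Chromosome 1 holds 7 unprocessed pseudogenes that copy mitochondrial genes, at chr1:24611535-24616197 (mm10). When compared base by base in GRCm38.p6, 5 of the 7 had 0 mismatches to mt-Nd4, mt-Nd4l, mt-Co3, mt-Atp6 or mt-Co2 over their whole length. The copy of mt-Nd3 had 1 mismatch and that of mt-Co1 had 6. The table gave the 7 copies 1.64%, 1.96% and 0.838% of TPM in embryo 1 and 1.63%, 1.75%, 4.79%, 1.79%, 1.60% and 1.98% in embryo 2. mt-Co3, a core subunit of complex IV, was listed at only 0.160 to 0.300 TPM in the 9 cells, whereas its identical copy Gm28437 was listed at 2008 to 10212 TPM. Reads from 2 identical sequences cannot be told apart. The first 50 bases of mt-Co3 (chrM:8607-8656, plus strand) and of its copy (chr1:24613922-24613971, minus strand) show this, and no letter differs.
mt-Co3: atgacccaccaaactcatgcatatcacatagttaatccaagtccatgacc
Gm28437: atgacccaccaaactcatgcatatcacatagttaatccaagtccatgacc

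The start of mt-Nd3 (chrM:9459-9508, plus strand) and of its copy Gm28438 (chr1:24613070-24613119, minus strand) holds the only difference between the pair, T3C counted from the first base of the gene, in capitals here.
mt-Nd3: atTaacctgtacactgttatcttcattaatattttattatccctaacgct
Gm28438: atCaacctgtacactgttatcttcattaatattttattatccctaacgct
The copy held 29.2% to 100% of the TPM of this pair, and mt-Nd3 itself was listed at 0 in 2 cells. For mt-Co2, the share on the copy ran from 6.56e-05% to 89.8%. The levels of single mRNAs with a copy are therefore uncertain, and the mitochondrial sums of complexes I, IV and V above leave out what the table assigned to the copies. With the copies added to the mitochondrial mRNAs, their share became 4.51%, 5.06% and 2.66% in embryo 1 and 5.01%, 4.82%, 17.3%, 8.04%, 8.48% and 11.2% in embryo 2, with the same 4 cells highest. The embryo difference of the log2 ratio was then 1.09. Of the genes without a copy there, mt-Cytb measured 3242, 3831 and 2214 TPM in the embryo 1 cells and 4486 to 15076 TPM (median 6969.6) across embryo 2.

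Between embryos, few members stood apart. Genes whose log2(TPM + 1) averaged 3 or more were compared, which kept 82 members. Of these, 0 had all embryo 2 cells above all embryo 1 cells, where 1.12% of 6815 nuclear genes did. In the other direction 2 members had all embryo 2 cells below, where 2.58% of genes did, so the count is near the background. They were Ndufb2, an accessory subunit of complex I, and Cox7c, a structural subunit of complex IV. Ndufb2 measured 127, 137 and 215 TPM in the embryo 1 cells and 70.4 to 125 TPM (median 101) across embryo 2. Cox7c measured 461, 434 and 490.3 TPM in the embryo 1 cells and 265 to 434 TPM (median 317) across embryo 2. In both genes the closest cells of the embryos were nearly equal. The differences in mean log2(TPM + 1) were -0.63 and -0.51, against pooled SDs of 0.33 and 0.21. With TPM rescaled outside the mitochondrial genome, 0 members had all embryo 2 cells below.

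The median difference over the 91 members was -0.02 on the log2(TPM + 1) scale, embryo 2 minus embryo 1, beside -0.04 over the 6815 genes. It became 0.07 with TPM rescaled outside the mitochondrial genome, so its sign depends on the scaling. By direction, 41 members were higher on average in embryo 2, 47 lower and 3 equal. Of the 82 members that averaged 3 or more, 13 (15.9%) differed by more than their own pooled SD, where 23.9% of genes did. Complex V took 38.6% ± 1.94 (SD, n = 3) of structural subunit TPM in embryo 1 and 43.5% ± 2.49 (SD, n = 6) in embryo 2, a difference of 4.86 points against a pooled SD of 2.35. Within 20-25 it took 39.96% and 39.5% in embryo 1 and 44.0% to 45.9% in embryo 2.

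The number ranges separated 5 members. Of the 82 members, 3 were higher in every cell numbered 20-25 than in every cell numbered 11-17 (2.35% of genes were) and 2 were lower (8.85% of genes were). The higher ones were Atp5l and Atp5j, subunits of the membrane part and the stalk of complex V, and Ndufc1. The lower ones were Ndufb8 and Ndufa8, accessory subunits of complex I. Atp5l was at 301, 284 and 326 TPM in the 3 cells numbered 11-17 and at 807 to 1303 TPM, with a median of 1081, in the 6 cells numbered 20-25. Its difference in mean log2(TPM + 1) was 1.79, against a pooled SD of 0.24, and it had the same direction in both embryos. Ndufc1 (1.13 against 0.37) and Atp5j (0.65 against 0.25) followed. Atp5j, Ndufb8 and Ndufa8 fall outside the rule for named genes and were chosen after their values were seen.

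**Figure D5:**
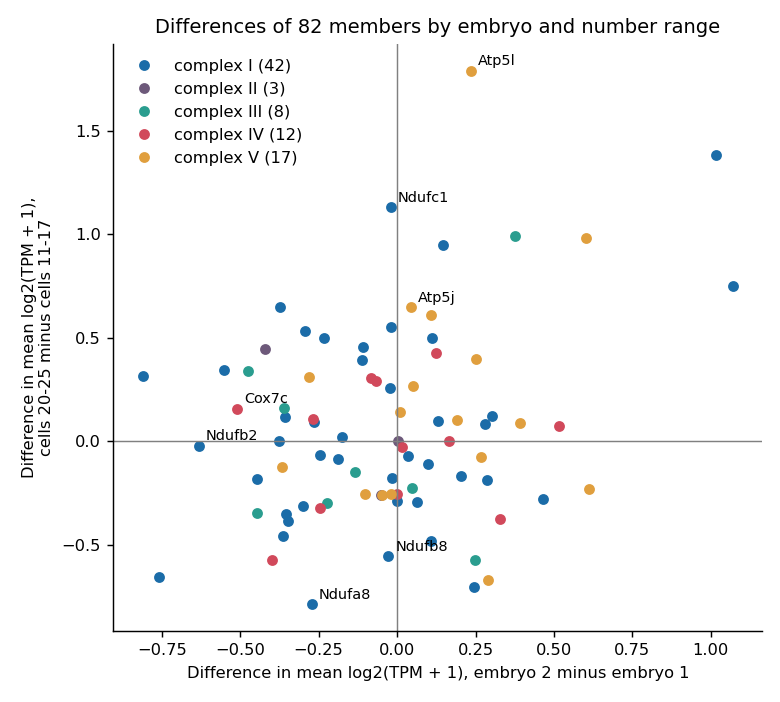
Difference in mean log2(TPM + 1) of the 82 members that averaged 3 or more, embryo 2 minus embryo 1 on the x axis and cells numbered 20-25 minus 11-17 on the y axis, coloured by complex. Genes whose groups do not overlap on either axis are named. Atp5l lies highest, at 1.79 on the y axis.

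The transcript table showed where the RNA of these genes lay. Transcripts that GENCODE labels protein-coding took 70.3% ± 5.49 of member TPM (SD, n = 9), beside 76.1% ± 1.52 over all autosomal protein-coding genes. For 21 of the 82 members that averaged 3 or more (25.6%) the most abundant transcript was not a protein-coding one, where this was so for 20.5% of 6001 autosomal protein-coding genes past the same filter. Among them was Atp5l, with 90.04% of its TPM on Atp5l-203, a processed transcript. This model was at 163 to 257 TPM in the cells numbered 11-17 and at 769 to 1218 TPM in those numbered 20-25. The protein-coding transcripts of Atp5l were at 66.4 to 119 TPM in the first range and at 0 to 215 TPM in the second, and overlapped. For Ndufc1 61.5% of TPM lay on Ndufc1-203, a retained-intron model, for Atp5j 84.9% on Atp5j-208, a retained-intron model, and for Atp5b 64.9% on Atp5b-206, a processed transcript.

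This share moved with the number range. Protein-coding transcripts took 79.9%, 76.5% and 74.6% of member TPM in the 3 cells numbered 11-17 and 63.8% to 69.4%, with a median of 67.4%, in the 6 numbered 20-25, with no overlap. Over all autosomal protein-coding genes the same share was 77.8% ± 0.791 (SD, n = 3) and 75.3% ± 0.982 (SD, n = 6). Among the 82 members the share was lower in 20-25 for 44 (53.7%) and higher for 19 (23.2%), where it was lower for 40.8% and higher for 37.3% of the 6001 genes. The median member difference, 20-25 minus 11-17, was 0.00 on the log2(TPM + 1) scale over all transcripts, beside -0.27 over the 6815 genes, and -0.20 over protein-coding transcripts of the 82 members, beside -0.34 over those of 5998 autosomal genes. The part of the lysis volume in these differences was not tested.

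Other genes of the pathway were read from lists. Of the 2 electron carrier genes, Cyc1, the nuclear cytochrome of complex III, averaged 137 TPM and was lower in every cell numbered 20-25, and Cycs, cytochrome c, averaged 11.9 TPM. Of 22 assembly and regulatory genes, 17 had TPM > 1 in every cell, and among the 18 that passed the filter 1 had all embryo 2 cells above, Atpaf2, and 0 had them below. Cox14, an early factor in making mt-Co1, was far above the rest of the list at 1145 TPM on average. The 3 X-linked subunits Ndufa1, Ndufb11 and Cox7b, left out by the rule, averaged 72.2 to 113 TPM, and summed to 323, 484 and 337 TPM in the embryo 1 cells and to 158 to 301 TPM across embryo 2.

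Of 12 genes for mitochondrial transcription and its control, 9 had TPM > 1 in every cell. Tfam, which packages mitochondrial DNA, averaged 21.3 TPM, Polrmt, its RNA polymerase, 85.1 TPM, and Tfb2m, a transcription factor of that polymerase, 91.5 TPM. Tfb2m was the only one of the 9 that passed the filter and differed between number ranges without overlap, being higher in 20-25. Nrf1, Gabpa and Yy1 were present in every cell at 84.6, 75.8 and 65.6 TPM on average, whereas the coactivator Ppargc1a was listed at 0 in all 9 cells and Ppargc1b reached at most 1.65 TPM. All 14 TCA cycle genes had TPM > 1 in every cell, with a median of 50.7 TPM.

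DNA of the same cells gave a replication state for 81 members in all 6 embryo 2 cells. The other 10 members lie on chromosomes 6 and 10, which have no bins in the table. A gene was taken as replicated where most of the 40-kb bins with a call over it had that state. Bins without a call were left out. In all 6 cells 65 of the 81 members (80.2%) were replicated, where 70.5% of 17309 autosomal protein-coding genes were. Per cell, 67 of 81 (82.7%) were replicated in cell 6, whose genome was the least replicated (62.4% of bins), where 78.5% of genes were. In the other 5 cells (74.2% to 80.5% of bins) it was 78 to 81 members (96.3% to 100%), where 91.2% to 95.4% of genes were. Of the 16 members not replicated in all 6, 10 lacked replication in cell 6 alone, among them Ndufs6, Ndufaf8, Uqcrfs1 and Cox7c. Cox7b2, the nearly silent testis isoform, was the only member unreplicated in 3 or more cells and was unreplicated in 5 of 6. In embryo 1, 2 members were called replicated in a cell, Ndufaf2 and Cox6a2, both in cell 1.

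The RNA of the 10 members unreplicated in cell 6 alone was compared within embryo 2. On the log2(TPM + 1) scale, cell 6 minus the mean of the other 5 embryo 2 cells had a median of 0.14 over these 10 genes, 5 of them higher and 5 lower in cell 6. Over the 65 members replicated in all 6 cells the median was 0.12, with 41 genes higher and 22 lower. Ndufs6 was at 339 TPM in cell 6, above the 145 to 307 TPM of the other embryo 2 cells, and Uqcrfs1 at 75.6 TPM, within their 74.5 to 123 TPM.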

How the data were processed

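Single-cell RNA and DNA of the same blastomeres were measured in the series, which holds 26 samples. The authors set the reads of each cell to a common number, aligned them to mm10 with Hisat within ramdaq, and deposited gene and transcript levels as TPM estimated by RSEM on GENCODE vM25. For the DNA the authors deposited a replication score per 40-kb bin, called with AneuFinder after alignment with BWA 0.7.17-r1188: 1 for replicated, -1 for unreplicated and 0 for no call. The reads behind a single TPM cannot be read from the table, so no interval for counting error is given.

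RNA columns were matched to samples by the closing number of their header, because every header carries the same embryo and cell name, which fits 1 of the labelled cells alone. Of 13 cells with labels, 4 are not analysed here, and 14 columns per table that match no sample were not used. Members were matched by symbol on the autosomes, and 55141 of 55487 gene IDs matched the annotation. Differences are of mean log2(TPM + 1), with a pseudocount of 1 TPM, beside the pooled SD between cells. Genes with a mean under 3 on this scale were left out of counts of groups that do not overlap. Cells of an embryo are not replicates and no test was run. Named genes were the 3 highest and 2 lowest subunits of each complex, the Sdh genes, isoform sets, the highest and lowest assembly factor, the 3 largest SDs, members whose embryos do not overlap, and members unreplicated in 3 or more cells. The members, lists and number ranges were chosen with earlier results of these data known. Alternatives were TPM rescaled outside the mitochondrial genome, other centrings, pseudocounts and filters, single number ranges and leaving out each cell. Python 3.11.15, pandas 2.3.3 and numpy 2.4.6 were used, and the scripts were tested on simulated data.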

Additional observations from a re-analysis of the deposited data

Results flagged for a closer look

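Among 78 measures, 16 had an embryo 2 cell far from the other 5 by Dixon's criterion, used here to flag cells and not as a test. Its rate of 1 in 20, or 3.9 measures, holds for independent normal values. TPM values and sums that share genes need not meet this, and for Cox7b2 the other 5 cells were at 0. The count of 16 is therefore not read as an excess. Cell 5 stood apart in the share of the chromosome 1 copies (4.79% of TPM), in mt-Nd2 (13148 TPM), mt-Nd5 (10429 TPM) and mt-Nd6 (3357 TPM), in Ndufb4 (109.8 TPM) and Cox8c (6.75 TPM). The listed mt-Co3 value was lowest in cell 5 too (0.160 TPM), but the sum of mt-Co3 and its identical copy was the highest of the 9 cells there (10212 TPM), so the listed value is not a level of this mRNA. Cell 3 stood apart in Atp5b (1798 TPM), Cox7a2l (245 TPM), Cox7b2 (4.04 TPM) and the sum of mitochondrial ribosomal proteins (5708 TPM). Cell 6 was low in the sums of the TCA cycle genes (965 TPM) and of the genes for mitochondrial transcription (395 TPM). Cell 2 had 87 members with TPM > 1, cell 7 was low in Ndufaf8 (42.5 TPM) and cell 8 was high in Ndufaf6 (197 TPM). The share of the mitochondrial genome was highest in cell 5.

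In 10 of 162 contrasts every cell of one group moved one way and every cell of the other the opposite way. None of these differences was tested, and each rests on a group of 1 to 4 cells. How many such contrasts a random order of the cells would give was not worked out. The count of 10 is therefore not read as an excess. From the cells numbered 11-17 to those numbered 20-25, the log2 ratio of mitochondrial mRNA to member TPM rose by 1.28 in embryo 2 and changed by -0.50 in embryo 1. The summed TPM of mitochondrial mRNAs differed by 12289 in embryo 2 and -2113 in embryo 1 for complex IV, and by 17536 and -564 for complex V. For mt-Co2 the differences were 10152 and -882 TPM, for mt-Atp8 5323 and -1711 TPM, and for Uqcrh -124 and 85.6 TPM. With the chromosome 1 copies added, the embryo 1 cells no longer all moved one way for the log2 ratio, the sums of complexes IV and V or mt-Co2, whose embryo 1 difference became 1196 TPM. In embryo 2 every cell still moved up. Uqcrh has no copy there. No listed copy was assigned to mt-Atp8, so its values were not summed with one. The end of mt-Atp8 (chrM:7766-7969) nevertheless lies in the stretch that Gm10925 copies with 0 mismatches (chrM:7927-8604). The values of mt-Atp8 therefore share the limit of mapping. From embryo 1 to embryo 2, the median member differed by -0.16 on the log2(TPM + 1) scale within 20-25 and by 0.14 within 11-17. Sdhc differed by 3.50 TPM within 20-25 and -6.77 TPM within 11-17, Cox5a by 109 and -97.8 TPM, and mt-Atp8 by 6229 and -804 TPM.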

How the results depend on the processing

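Of 182 recomputed values, 165 moved by less than the spread between cells or, for counts, stayed within 1.5 times. Within that spread, 7 embryo differences took the opposite sign. The member share, -0.03 points, became 0.10 with rescaled TPM, 0.08 with the cells numbered 11-17, 0.09 without embryo 1 cell 7 and 0.02 without embryo 2 cell 2. The median member difference, -0.02, became 0.07 with rescaled TPM, 0.04 with centred cells and 0.05 with the cells numbered 11-17. The embryo difference of the log2 ratio was 1.29 and fell to 0.10 with the cells numbered 11-17 alone. The mean log2 ratio of 1.42 became 5.27 with medians over genes in place of sums. The median difference of the members between number ranges, 0, became 0.28 with each cell centred on its median protein-coding gene and -0.23 with protein-coding transcripts alone, an alternative chosen after seeing the data, as was adding the chromosome 1 copies. The 2 members lower in embryo 2 became 0 with TPM rescaled outside the mitochondrial genome. The median subunit level became 100.5 TPM for complex I and 435 TPM for complex V with the mean over subunits, 93.3 TPM for complex I after rescaling, and 45.4 TPM for complex II and 371 TPM for complex IV over subunits with TPM > 1 in every cell. Except where the construction shows it, the cause was not tested. With each cell left out in turn, the members higher in embryo 2 numbered 0 to 3 (1 without embryo 1 cell 1, 2 without cell 6 or cell 7, and 3 without embryo 2 cell 5), and those lower 2 to 5 (4 without embryo 1 cell 1, 5 without cell 6, and 4 without embryo 2 cell 5). The embryo difference of the log2 ratio ran from 0.96 to 1.499, and the share of members replicated in all cells from 80.2% to 92.6%, the latter without cell 6. No paired analysis was possible because the cells are not paired between embryos and no test was run. TPM does not show the reads behind a value, which limits low values most.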

Other observations

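Ndufb1-ps, listed as a non-coding RNA from a shared promoter and left out of the members by its type, was at 85.8, 133 and 98.6 TPM in embryo 1. In embryo 2 it was at 64.1 and 55.6 TPM in cells 2 and 3 and at 128 to 191 TPM in cells 5 to 8. All 3 cells numbered 11-17 were below all 6 numbered 20-25. Of 12 processed pseudogenes named after members, 8 were listed at 0 in every cell.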
